A study of Homo sapiens with 9 samples.

Results

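The basal transcriptome of ALL-SIL, a human line grown from T-cell acute lymphoblastic leukaemia (T-ALL), was described over 9 of the 9 libraries of the series as 1 set. A test of the 3 labelled groups, given near the end, names listed genes whose level differed between them. Genes were chosen by rank. CPM values (counts scaled so that the gene counts of every library have the same sum) of 19737 protein-coding genes, out of 58096 gene rows, were ranked within each library, and 452 named genes from 32 lists of lineage, stage, signalling and oncogene genes were then read off. CPM follows 1 gene across libraries and sets the ranks and classes, which therefore favour long transcripts. TPM, which also divides by exon length, is given for some genes. CPM values of different genes set side by side are not corrected for length.

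Every library came from polyA+ RNA of ALL-SIL cells that had been electroporated with a small interfering RNA (siRNA). Per the labels, 3 libraries received the NTC siRNA, 3 the TLX1 siRNA1 and 3 the TLX1 siRNA2, each with replicates 1 to 3. No library came from cells that had not been electroporated, so the basal state is that of siRNA-treated cells in medium with fetal bovine serum. The meaning of NTC, the siRNA dose and the harvest time are not stated in those labels. The series is 1 cell line, and nothing in the labels ties replicates to separate cultures, so their spread may be technical.

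The libraries held 58305492 to 99524663 gene counts, which puts the level that 3 counts reach at 0.0301 to 0.0515 CPM. Spearman's rho between libraries lay between 0.9879 and 0.9954 over 36 pairs. TLX1 RNA went against the siRNA1 label, with a mean of 418.2 CPM there, 176.7 in NTC and 202.7 in siRNA2 libraries. The siRNA2 mean was not below that of NTC either. Group names are therefore those of the labels throughout. The replicate 1 libraries stood apart in another way. In all 3 of them, 6 protein-coding genes had at least 10 counts while no other library had more than 1: CDKN2A, RORB, TLX3, PTPRG, PHF21B and HOXD13, chosen after their values were seen. No gene met this rule for replicate 2 or replicate 3. Whether these counts come from ALL-SIL cells was not tested. Results for CDKN2A and TLX3, the class counts, some list counts and the calls of the group test are given with and without replicate 1. Most other values, such as V gene shares and promoter medians, are given over all 9 libraries only.

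T cells develop in the thymus from progenitors that pass a double-negative stage, rearrange their receptor genes with the RAG recombinase, and reach a cortical stage with CD1, CD4 and CD8 on the surface. T-ALL arises when this path is blocked by oncogenes such as the homeobox gene TLX1, by signalling through the NOTCH1 receptor, and often by loss of the CDKN2A tumour suppressor. ALL-SIL is known for TLX1 expression and for a fusion of NUP214 with the tyrosine kinase ABL1.

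Each protein-coding gene was put in 1 of 5 classes. A top gene was in the highest-ranked 10% of its library in all 9 libraries, which needed 117.9 to 121.7 CPM, and 1645 genes (8.33%) were top. They held 59.5% to 60.8% of all gene counts. A middle gene had at least 1 CPM in every library without being top (8558 genes, 43.4%). A low gene stayed under 1 CPM in every library (2225 genes, 11.3%), and an absent gene under 0.1 CPM (6760 genes, 34.3%), of which 3206 had no count in any library. The rest crossed a limit and were called mixed (549 genes, 2.78%). Over the 6 libraries of replicates 2 and 3, the counts were 1689 top, 8621 middle, 2069 low, 6948 absent and 410 mixed genes.

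**Figure D1:**
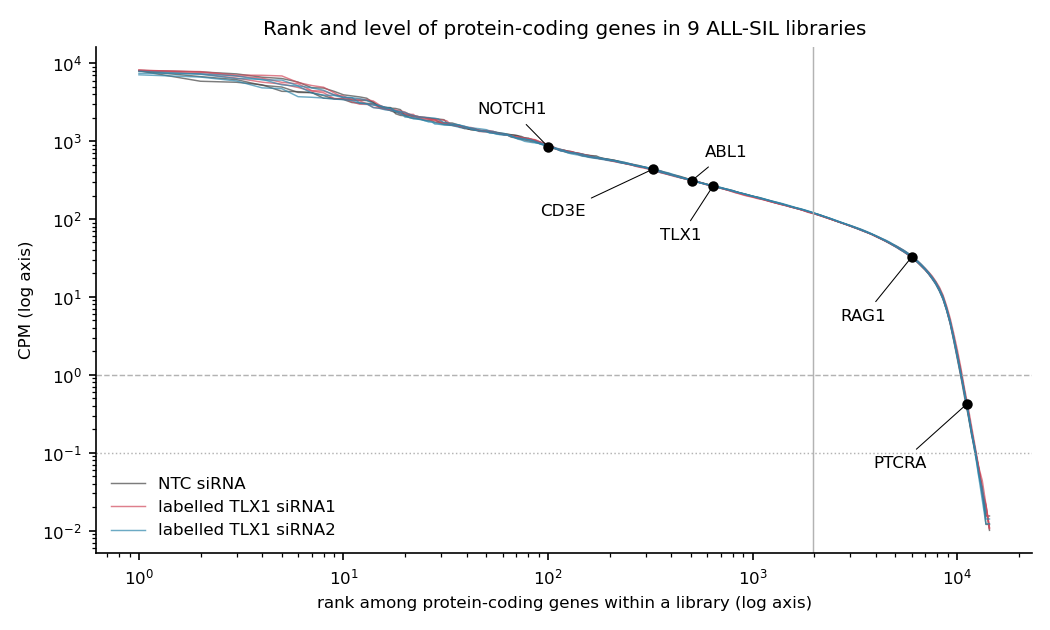
Level in CPM (log axis) against rank among protein-coding genes (log axis), 1 line per library coloured by labelled group. Black points mark the mean of the 6 marker genes, the vertical line the rank limit of the top class, and the dashed and dotted lines 1 and 0.1 CPM. The 9 lines lie on each other, NOTCH1, CD3E, ABL1 and TLX1 sit left of the limit, and PTCRA sits below 1 CPM.

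The 6 genes taken to mark these cells spread over 3 classes. CD3E, a signalling chain of the T cell receptor complex, had 428.2, 415.6 and 430.6 CPM in the NTC libraries, 463.4, 460.2 and 459.8 in those labelled siRNA1, and 432.0, 444.5 and 404.9 in those labelled siRNA2. It was top and close to even across libraries. The 6 genes lie on GRCh38 at chr11:118304545-118316175 (CD3E), chr10:101130505-101137789 (TLX1), chr9:136494433-136545786 (NOTCH1), chr9:130713946-130887675 (ABL1), chr11:36510709-36593156 (RAG1) and chr6:42915989-42925835 (PTCRA), per GENCODE 29. TLX1 was top in all 9 libraries, from 167.6 CPM to 451.9 with a median of 197.7, and its rank lay between 310 and 1266. The receptor gene NOTCH1 had 862.6, 1197 and 943.3 CPM in the NTC libraries, 584.8, 724.0 and 625.2 in those labelled siRNA1, and 943.3, 1048 and 718.9 in those labelled siRNA2. Its rank lay between 68 and 188. The libraries labelled siRNA1 overlapped with those labelled siRNA2 across replicates, but within each replicate number the library labelled siRNA1 was the lowest. ABL1 was about as even as CD3E, with a range of 286.1 to 329.4 CPM and a median of 310.4.

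RAG1 and PTCRA, markers of the stages at which receptor genes are rearranged, were not top. RAG1, a subunit of the recombinase, was a middle gene with 20.4, 43.05 and 61.68 CPM in NTC replicates 1 to 3, 12.54, 17.94 and 24.43 in those labelled siRNA1, and 16.86, 37.43 and 59.69 in those labelled siRNA2. In each group replicate 1 was the lowest. PTCRA, which encodes the surrogate alpha chain of the pre-T cell receptor, was a low gene. It had 7, 55 and 36 counts in the NTC libraries, 16, 71 and 53 in those labelled siRNA1, and 10, 44 and 30 in those labelled siRNA2, which is 0.1077 to 0.7647 CPM. The labelled cell type therefore had 5 of its 6 markers at 1 CPM or more in every library, and PTCRA stayed below that level.

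Outside the mitochondrial genome, the largest counts were those of EEF1A1, a translation elongation factor, with 6083 to 8196 CPM. Next by CPM came the actin gene ACTB with 3524 to 5668, the glycolytic enzyme ENO1 with 3414 to 4404, and PTMA with 2982 to 3700. STMN1, a regulator of microtubules, had 2964 to 3937 CPM and the tubulin gene TUBB 2570 to 3814. Per length, and among protein-coding genes outside the mitochondrial genome, TMSB10 and TMSB4X, which bind actin monomers, came first with mean levels of 11460 and 6098 TPM, ahead of RPS12, ACTB and EEF1A1. CD3D was 19th in this order at 2091 TPM and was the only T cell receptor complex gene among the first 20. Ribosomal protein genes took 4.71% to 5.88% of gene counts and genes of the mitochondrial genome 4.24% to 5.83%. MT-CO3 and MT-CO1, subunits of cytochrome c oxidase, had 5879 to 8086 and 5704 to 7821 CPM, more than ACTB in every library.

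Among reference genes often used to scale RNA, 10 of 13 were top and the other 3, HPRT1, GUSB and TBP, were middle. ACTB was also one of the less even of them, since its highest library had 5668 CPM against 3524 in its lowest. TBP ranged only from 38.87 to 44.89 CPM.

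Most genes of the T cell receptor complex were at high levels, and the constant gene of the alpha chain was low. Of 10 constant and CD3 chain genes, 7 were top, 2 middle and 1 low. The CD3 chains CD3D (475.5 to 601.5 CPM), CD3E, CD247 (232.3 to 305.5) and CD3G (160.1 to 235) were all top. The gamma and delta constant genes TRGC2 (341.2 to 463 CPM) and TRDC (266.1 to 321.3) were top, with means of 1400 and 1455 TPM. The 2 gamma and the 2 beta constant genes are near-identical copies, so how reads split between them is uncertain. Of the beta constant genes, TRBC2 was top at 141.7 to 189.4 CPM and TRBC1 had 8.121 to 14.18. TRAC, the alpha constant gene, had 9, 23 and 23 counts in the NTC libraries, 8, 25 and 22 in those labelled siRNA1 and 9, 10 and 15 in those labelled siRNA2. Its mean was 0.722 TPM against 1455 for TRDC, whose gene lies inside the same locus. TRDC shares exon bases with another annotated gene, and counting it by strand gave 1.98 times as many reads.

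Variable (V) genes of each locus were led by 1 or 2 members. TRGV7 held 61.3% of the counts of 14 gamma V genes, with 137.2 to 194.1 CPM, and TRGV9 held 20.8%. TRBV18 and TRBV7-9 held 41.1% and 38.3% of the counts of 68 beta V genes, at 39.2 to 46.12 and 34.47 to 48.32 CPM. TRDV2 held 78.7% of the counts of 3 delta V genes, at 10.01 to 12.41 CPM. TRAV30 held 66.4% of those of 54 alpha V genes, at 8.828 to 14.31 CPM, although TRAC was low. Counts of a V gene do not tell a rearranged transcript from a germline one.

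Surface antigens shared by most T cells were high, but CD2 was not. CD7, SPN, CD96, CD99, PTPRC and CD5 were top, 6 of 10 genes on the list. CD7, one of the first antigens to appear in the lineage, ranged from 276.6 to 549.2 CPM, and PTPRC, the leukocyte phosphatase CD45, from 353 to 600.9. CD6 had 89.22 to 114.6 CPM and the costimulatory receptor CD28 had 32.01 to 57.44. CD2, an adhesion receptor of T and NK cells, had only 2.305 to 5.799. CD27 had 0.538 to 1.47 CPM. It overlaps an antisense gene, and counting by strand gave 7.76 times as many reads. These libraries do not mark strand, so the added reads may come from either gene. The same holds for every count by strand given here.

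Cortical thymocyte genes were present at moderate levels. None of the 16 was top, 14 were middle and 2, PTCRA among them, were low. The CD1 genes, which present lipids on cortical thymocytes, had means of 286 TPM (CD1B), 189 TPM (CD1E), 105 TPM (CD1A), 15.8 TPM (CD1D) and 6.26 TPM (CD1C). The coreceptor gene CD4 had 88.44 to 149.8 CPM and CD8A 53.51 to 80.58, while CD8B had 4.219 to 9.33. RNA of both coreceptors was thus counted in all 9 libraries, which does not show that 1 cell holds both. DNTT, the terminal transferase that adds bases at receptor gene junctions, had 12.35 to 46.29 CPM, and RAG2 3.513 to 22.56.

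Genes of early thymic progenitors were mostly absent. Of 15, 8 were absent and 4 low, and 3, IGLL1, CD44 and LYL1, were middle. KIT, the stem cell factor receptor, had at most 0.024 CPM, and the transcription factor genes LMO2, MEF2C, HHEX, SPI1, HOXA9 and GATA2 stayed under 0.1 CPM, while MEIS1 had no count. CD34, the progenitor antigen, had between 0 and 10 counts per library. FLT3 had at most 0.159 CPM. IGLL1, a gene of the surrogate light chain, reached 26.6 CPM, and LYL1 held 5.385 to 7.23 CPM. Over replicates 2 and 3 alone, CD33 moved from low to absent and the other 14 kept their class.

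Of 10 mature T cell genes, 1 was top, 7 were middle, 1 was mixed and CD69, an early activation antigen, was low. CCR7, which guides cells to lymph nodes, had 13.34 to 27.64 CPM, and IL7R 6.786 to 21.16. S1PR1, the receptor by which T cells leave the thymus, and its activator KLF2 depended on the replicate number. KLF2 had 1.784, 9.174 and 9.741 CPM in NTC replicates 1 to 3, 1.252, 8.046 and 11.46 in those labelled siRNA1, and 1.659, 9.035 and 8.764 in those labelled siRNA2. The 3 replicate 1 libraries lay just above 1 CPM and did not overlap with the other libraries.

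Most effector genes were low or absent. The cytokine genes IFNG, IL2 and IL17A had no count in any library. Of 13 helper and effector genes 4 were absent, 5 low and 4 middle, the last being TNF (39.22 to 75.71 CPM), EOMES, MAF and BCL6. The regulatory T cell factor FOXP3 was low, with 3.82 times as many reads when counted by strand.

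**Figure D2:**
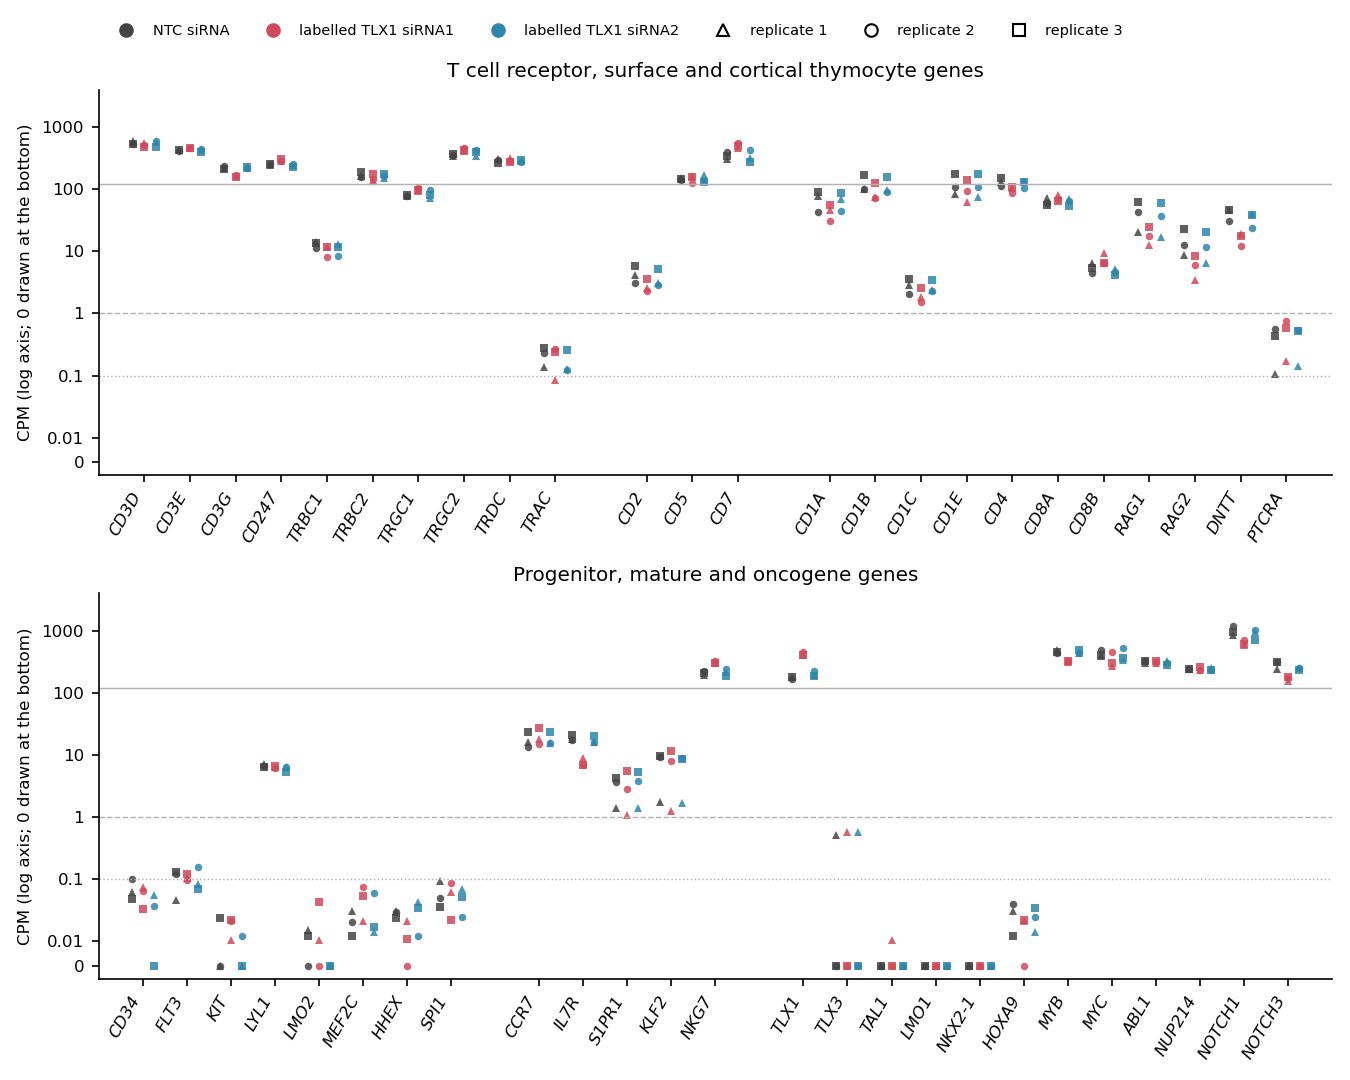
CPM (log axis, with 0 drawn at the bottom) of T cell receptor, surface and cortical genes above, and progenitor, mature and oncogene genes below. Each point is 1 library, its colour the labelled group and its shape the replicate, and the lines mark the median top limit (solid), 1 CPM (dashed) and 0.1 CPM (dotted). TRAC and PTCRA sit under 1 CPM while the CD3 chains sit above 100, and TLX3 has points above 0 only as triangles, the replicate 1 libraries.

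T lineage transcription factor genes were expressed with 1 exception. Of 26, 12 were top, 13 middle and 1, ERG, absent. LEF1 and TCF7, partners that read out WNT signalling and set T cell fate, had 664.8 to 889.1 and 606.8 to 932.4 CPM. The others in the top class were SOX4, ETS1, MYB, TCF3, TCF12, TOX, GATA3, IKZF1, IKZF2 and FLI1. GATA3, a factor needed at several steps of T cell development, had 134.9 to 178 CPM. BCL11B, which fixes T cell commitment, had 116.5 to 186.2 CPM and became top without replicate 1. The E protein genes TCF3 and TCF12 were top, and of their inhibitors ID3 had 55.04 to 137.1 CPM and ID2 2.63 to 6.635.

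T-ALL oncogenes of the transcription factor kind were mostly silent apart from TLX1, MYC and MYB. Of 22, these 3 were top, HOXA5 and LYL1 were middle, TAL2 and TLX3 were low and 15 were absent. LMO1, LMO3, NKX2-1, NKX2-2, NKX2-5 and MYCN had no count in any library, and TAL1, which drives another T-ALL group, had at most 0.0105 CPM. MYC, a regulator of growth, had 387.9, 495.5 and 411.1 CPM in the NTC libraries, 274.7, 459.8 and 300.1 in those labelled siRNA1 and 334.0, 534.3 and 364.3 in those labelled siRNA2. In each group its highest value was that of replicate 2. TLX3, a homolog of TLX1 and itself a T-ALL oncogene, was counted in replicate 1 alone, 33 times under the NTC label, 54 times under siRNA1 and 41 times under siRNA2, and never in the other 6. Without replicate 1 it was absent, and the list then had 16 absent genes.

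Kinase and signalling oncogenes were broadly expressed. Of 17, 9 were top: PIM1, ABL1, NRAS, PIK3CD, STAT5B, PTPN11, TYK2, NUP214 and AKT1. PIM1, a kinase induced by cytokine signals, had 262.2 to 333.9 CPM. FLT3 was the 1 low gene of the list. ABL1 and NUP214, the genes of the fusion ALL-SIL is known for, had 286.1 to 329.4 and 230.2 to 261.8 CPM, with means of 180 and 66.9 TPM. Counts per gene do not separate fusion reads from reads of the normal genes. Between them on 9q34, QRFP, FIBCD1, LAMC3 and AIF1L stayed low or mixed, with at most 1.27 CPM. FIBCD1 had 1.266, 1.196 and 0.989 CPM in the 3 replicate 2 libraries and at most 0.308 in the others. On the outer sides, FUBP3 and EXOSC2 had 82.63 to 101.6 and 77.11 to 98.3 CPM, and PRRC2B 152.2 to 241.

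Tumour suppressor genes of T-ALL were expressed with few exceptions. Of 26, 12 were top, 12 middle, 1 low and 1 absent. PHF6, a chromatin protein, had 129.8 to 181.5 CPM, and the polycomb genes EZH2 and SUZ12 were top. CDKN1A, a cell cycle inhibitor that is not among the 26, had 8 to 21 counts per library. CDKN2A, which encodes inhibitors of CDK4/6 and of MDM2, was counted in replicate 1 alone, as TLX3 was: replicate 1 held 62 counts under the NTC label, 93 under siRNA1 and 60 under siRNA2, and the other 6 held none. Its neighbour CDKN2B had 1, 5 and 4 counts in the same libraries and 0 elsewhere, and the antisense gene CDKN2B-AS1 had 2, 6 and 3 and 0 elsewhere. A count of 0 allows at most 0.0515 CPM in the shallowest library. Without replicate 1, CDKN2A was absent. Of the flanking genes on 9p21, MTAP had 6.25 to 8.625 CPM, KLHL9 86.34 to 117.7, and DMRTA1 0.264 to 0.806, in all 9 libraries.

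**Figure D3:**
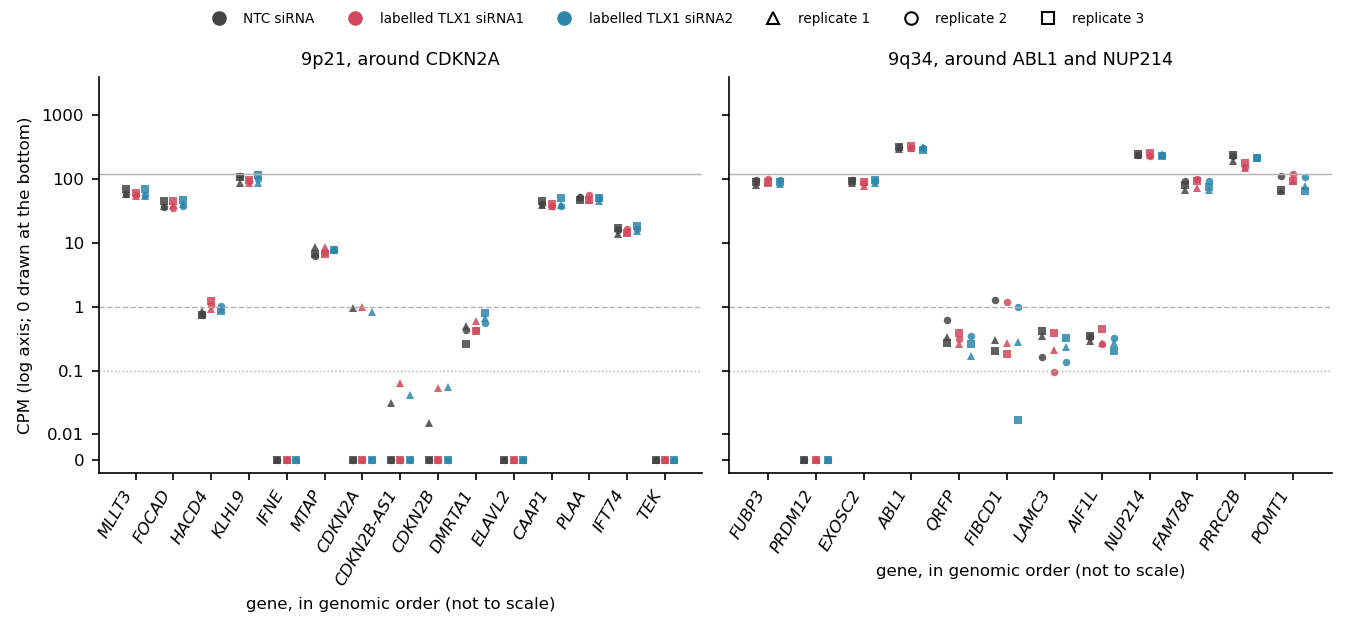
CPM (log axis, with 0 drawn at the bottom) of genes around CDKN2A (left) and around ABL1 and NUP214 (right), in genomic order and not to scale. Each point is 1 library, coloured by labelled group and shaped by replicate, with lines at the median top limit, 1 and 0.1 CPM. CDKN2A, CDKN2B-AS1 and CDKN2B lie above 0 only as triangles (replicate 1), and the 4 genes between ABL1 and NUP214 lie mostly under 1 CPM.

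NOTCH receptors are cleaved after binding a ligand on a neighbouring cell, and the freed part acts with RBPJ and MAML proteins in the nucleus. NOTCH1, NOTCH3 (154.7 to 315 CPM) and NOTCH2 (191.9 to 288.9) were top and NOTCH4 was low. Of 5 ligand genes none reached 1 CPM: DLL1, JAG1, DLL4 and JAG2 were low and DLL3 absent, and their summed level lay between 0.956 and 1.48 CPM. Processing and cofactor genes were present, with 3 of 15 top (ADAM10, the protease that cuts a receptor after ligand binding, APH1A and EP300) and 9 middle. PSEN2, a catalytic subunit of gamma-secretase, had at most 0.0421 CPM.

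Target genes of NOTCH1 ranged from top to absent, with 4 of 12 in each of these 2 classes. Over all protein-coding genes 8.33% were top and 34.3% absent, so the absent part of the list was near that background. Of 12, MYC, CCND3, DTX1 and NOTCH3 were top, HES1 and IL7R middle, PTCRA and HEY1 low, and NRARP, HES4, HES5 and HEY2 absent. DTX1, a ubiquitin ligase of the pathway, had 234.4 to 426.2 CPM. HES1, the repressor by which NOTCH1 signalling is often read, had 50.8 to 61.78 CPM with a median of 54.8. Its groups overlapped. The summed level of the 12 targets lay between 1487 and 1783 CPM in NTC, 1188 and 1546 in siRNA1 and 1485 and 1783 in siRNA2 libraries, which overlap as well. Both overlaps were read without pairing libraries by replicate number.

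The signalling chain below the T cell receptor was present almost in full. Of 26 genes, 11 were top, 12 middle, 1 mixed, 1 low and 1 absent. The kinase genes LCK (300.9 to 375.6 CPM), ZAP70 (230.3 to 283.4) and FYN (191.5 to 215.6) were top, as were GRB2, PLCG1, VAV1, GRAP2, CSK, THEMIS and UBASH3B. LAT, the membrane adaptor that ZAP70 phosphorylates, had 4.817 to 8.469 CPM. SYK, the relative of ZAP70 used by B cells, was low, and the adaptor gene SKAP1 was absent. Without replicate 1, RASGRP1 also became top.

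Among 20 cytokine receptor genes only the shared gamma chain IL2RG was top, at 393.4 to 494.9 CPM, and 15 were middle. IL9R, a partner of that chain, had 34.32 to 77.06 CPM, IL2RB 35.43 to 62.87 and IL4R 14.12 to 19.4, while IL2RA stayed low. IL6R had 7.074 to 37.49 CPM but IL6ST, the chain that transmits its signal, at most 0.141. All 15 JAK-STAT genes had at least 1 CPM in every library, and CISH, a feedback inhibitor induced through STAT5, led them per length at 327 TPM with STAT5B at 127 TPM.

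Of 20 chemokine, egress and adhesion receptors, 6 were top. ITGAL, the integrin alpha chain of LFA-1, had 1275 to 1558 CPM, and CXCR4, the receptor for the marrow chemokine CXCL12, 312.8 to 386.1. ITGA4, ITGB1 and ITGB2 were also top. CCR4 had 44.93 to 158.3 CPM and CCR9, a homing receptor for gut and thymus, 3.492 to 8.763. CCR6 was absent. CXCR5 was low at 0.154 to 0.452 CPM, but it was the extreme case of overlapping reads among the listed genes, with 42.0 times as many by strand. No costimulatory or inhibitory receptor was top: of 15, ICOS and CD28 were middle, 4 mixed, 5 low and 4 absent. TNFRSF4 had 4, 8 and 8 counts in replicate 1 and 41 to 186 in the other libraries.

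Cell cycle genes were high, led by PCNA at 1597 TPM. Of 18, 9 were top, among them MKI67 (1112 to 1554 CPM), TOP2A (886.3 to 1373) and MCM2. Of the G1 kinases, CDK6 had 1002 to 1270 CPM and CDK4 113 to 136.9. These values are not corrected for length, and CDK4 went from middle to top under ranks by TPM. Among D-type cyclins CCND3 had 462.9 to 611.6 CPM, CCND1 was absent, and CCND2 had 0.369, 4.18 and 4.769 CPM in NTC replicates 1 to 3, 0.252, 3.845 and 4.18 in those labelled siRNA1 and 0.267, 3.516 and 5.025 in those labelled siRNA2. CCND2 was thus lower in all 3 replicate 1 libraries than in any other, and it was middle without them. Of 16 BCL2 family genes, MCL1 (206.3 to 257.9 CPM) and BCL2 (142.4 to 163.4), which protect from apoptosis, were top. BCL2L11, which encodes the killer protein BIM, had 88.06 to 131.7 CPM. BBC3 and BOK were low and HRK was absent.

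MHC class I genes were expressed, while no class II gene exceeded 2.556 CPM in any library. Of 10 class I genes, 3 were top, B2M and HLA-E among them, 6 were middle and HLA-F was absent. Of 11 class II genes none was top, 2 were middle, 1 mixed, 3 low and 5 absent, with HLA-DRA at 0.108 to 0.215 CPM and the invariant chain gene CD74 at 0.288 to 0.652. HLA-DMB reached that value, with 2.556, 2.143 and 2.253 CPM in the libraries labelled siRNA1 and at most 1.167 in the others, and it is among the genes called by the test of the 3 groups below. CIITA, which switches class II genes on, had 1.536 to 1.941 CPM and 9.58 times as many reads by strand. Of 16 sensor genes for foreign RNA and DNA, MAVS and EIF2AK2 were top and 11 were middle, including CGAS at 42.3 to 52.74 CPM and STING (TMEM173) at 44.98 to 82.56. TLR8 was absent.

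Markers of other cell types were low or absent with named exceptions. Of 16 myeloid markers 8 were low and 8 absent, and their summed level lay between 1.123 and 1.658 CPM in NTC libraries, 1.041 and 1.336 in those labelled siRNA1 and 0.816 and 1.221 in those labelled siRNA2. S100A8 and S100A9 had no count. Of 14 erythroid and megakaryocyte markers 10 were absent, with the exception of EPOR at 9.004 to 10.95 CPM. Of 16 epithelial, stromal and endothelial markers 13 were absent, KRT5, LUM and CDH5 among those at 0, while PECAM1 had 97.87 to 125.1 CPM and PDGFRB 12.56 to 24.53. Of 14 B cell markers 5 were absent, including CD22 and MS4A1, but CD79A (8.901 to 19.9 CPM), CD79B (6.132 to 12.16), and POU2AF1 (11.94 to 35.68) were among the 4 that were middle. Without replicate 1, the absent markers were 7 of 14 for B cells (EBF1 and BLK added) and 10 of 16 for myeloid cells (CSF1R and CEBPE added).

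NKG7, a cytotoxic granule gene, was top at 184.9 to 330.1 CPM and 944 TPM, in a list of which 9 of 15 genes were absent. NCAM1, KLRF1, NCR1 and GZMK had no count, and PRF1, the gene of perforin, had at most 0.751 CPM. The granzyme gene GZMB had at most 0.395 CPM, and NCR3 was the 1 middle gene of the list.

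**Figure D4:**
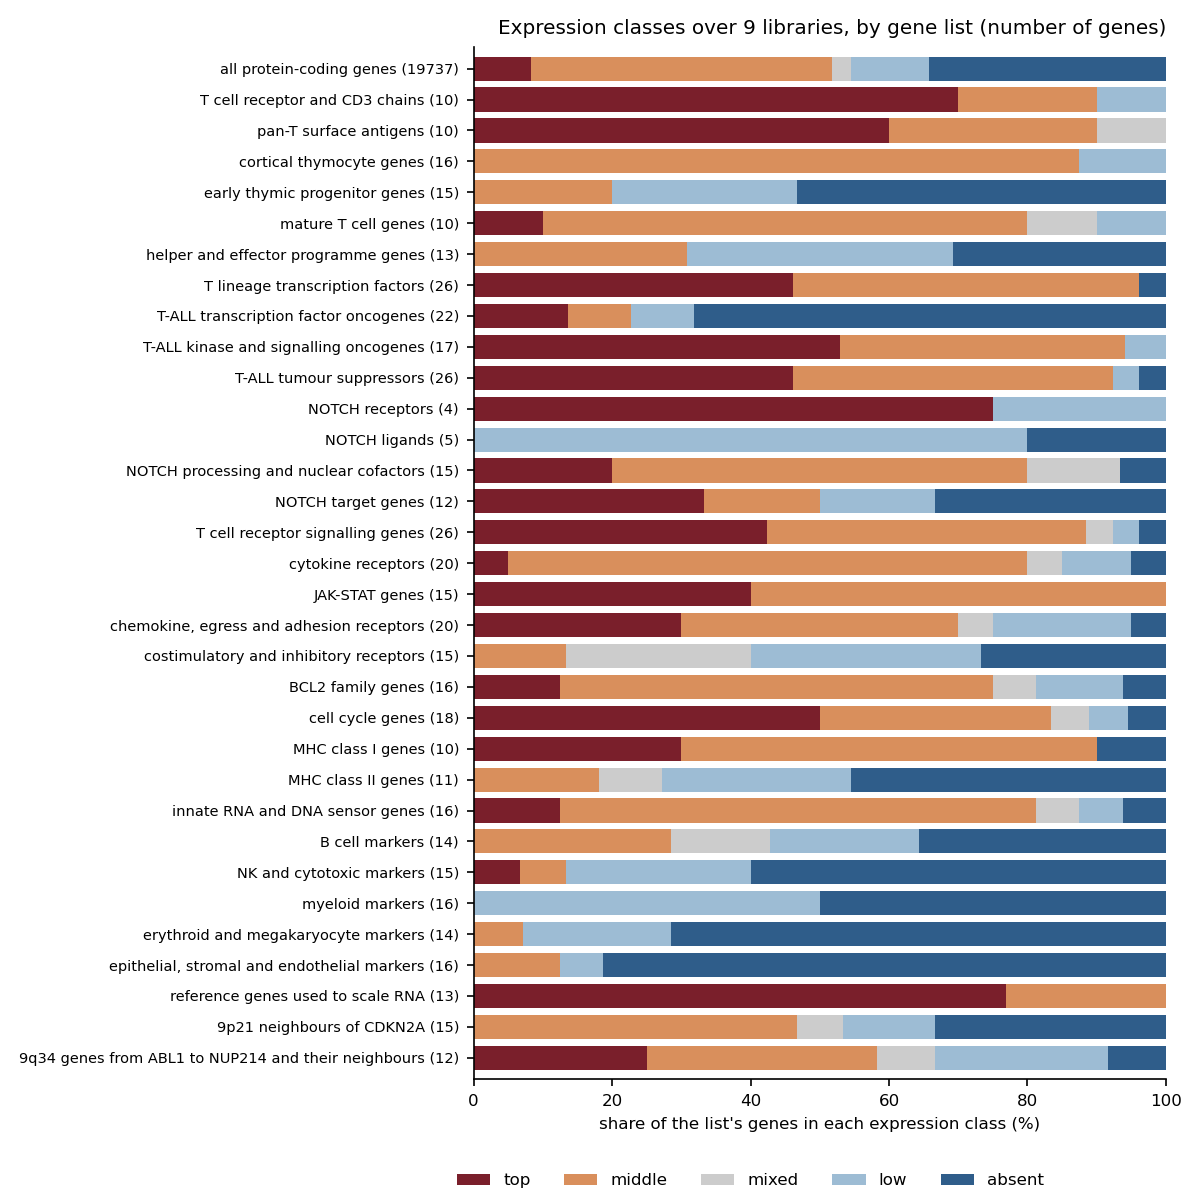
Share of genes in each expression class (%), for all 19737 protein-coding genes (upper bar) and for each of 32 lists, with the number of genes in brackets. Classes run from top (left) to absent (right). T cell receptor chains and pan-T antigens have 7 of 10 and 6 of 10 genes in the top class against 8.33% of all genes, and the marker lists of other cell types lie mostly in the low and absent classes.

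Over all lists, 104 of 452 genes were top and 97 (21.5%) absent, and 33 had no count in any library. The lists were chosen for T cells, so these shares describe the choice as well as the cells. Over the 6 libraries of replicates 2 and 3, 15 of the 443 protein-coding ones changed class, 5 of them to top and 7 to absent.

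Long noncoding RNAs took few counts. Of the total, lincRNA genes held 0.47% to 0.676%, antisense genes 0.427% to 0.502% and processed transcripts 0.316% to 0.358%. LINC00861 led the long noncoding RNAs by CPM at 581 to 1805, followed by OIP5-AS1 (399.2 to 490.3), NORAD (347.1 to 520.7), LRRC75A-AS1 (248.8 to 336.9) and the imprinted gene H19 (128.8 to 453). H19 and LINC00861 were uneven, with coefficients of variation of 37.6% and 42.3% against 6.12% for OIP5-AS1.

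Most genes were steady across libraries that differ in siRNA and replicate. Over 10488 protein-coding genes with a mean of at least 1 CPM, the highest library exceeded the lowest by a median of 1.345 times, with quartiles of 1.243 and 1.525, and 668 genes (6.37%) by over 2 times. Among genes with a mean of at least 10 CPM, ZSWIM7, GPATCH8, NUB1 and HNRNPA2B1 were among the 5 steadiest, which had coefficients of variation of 1.86% to 1.92%. CHDH, DAB2IP, PFKFB4, IL6R and CHD7 varied most, from 57.8% to 74.0%. DAB2IP, a regulator of Ras signalling, had 17.89, 15.36 and 22.55 CPM in NTC, 2.745, 1.928 and 3.505 in siRNA1 and 15.14, 12.75 and 16.05 in siRNA2 libraries. CHD7, a chromatin remodeller, went with the replicate number, at 2.325 to 3.178 CPM in replicate 1 and 10.57 to 16.83 in the others.

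Among listed genes with a mean of at least 1 CPM, the 10 that varied most were CCND2, KLF2, RAG2, CXCR3, IL6R, S1PR1, RAG1, IGLL1, HLA-DMB and DNTT. CCND2, KLF2 and S1PR1 were low in replicate 1. CXCR3, a chemokine receptor, had 1.877, 2.281 and 1.414 CPM in NTC, 6.774, 8.552 and 6.488 in siRNA1, and 2.109, 3.748 and 1.509 in siRNA2 libraries, so it went with the label and its siRNA1 libraries did not overlap with the rest.

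**Figure D5:**
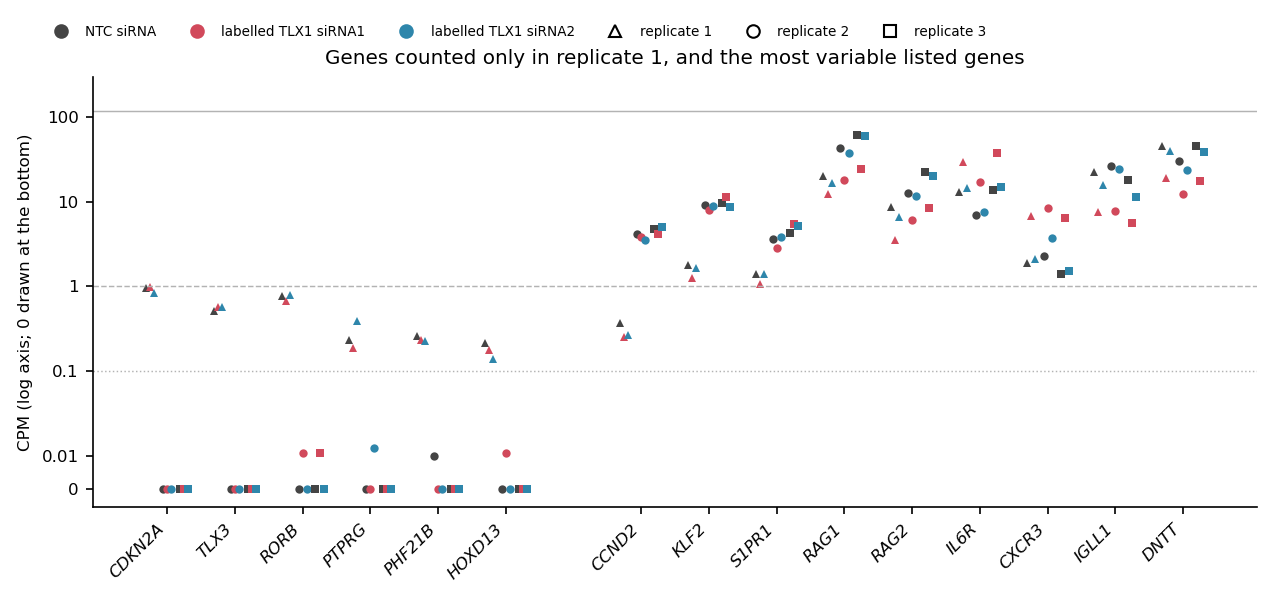
CPM (log axis, with 0 drawn at the bottom) of the 6 protein-coding genes counted only in replicate 1 (left) and of 9 of the most variable listed genes (right). Points are libraries, spread sideways by replicate number, shaped by replicate and coloured by labelled group. Triangles (replicate 1) are the points above 0.1 CPM on the left and the lowest points for CCND2, KLF2 and S1PR1.

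Which levels cannot be read as 1 population of 9 was asked with 1 test over the 3 groups (edgeR, quasi-likelihood F test, Benjamini-Hochberg adjustment over 18554 genes). It called 198 genes, 1.07% of those tested, and 22 of the 345 listed genes tested, 6.38%. With the replicate number as a block it called 2178 genes, 11.7%, and 106 listed genes, 30.7%. The lists were chosen with earlier results of these data known, so the higher shares of listed genes describe that choice as well. Over replicates 2 and 3 the calls were 46, and 1306 with the block.

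Of the 22, TLX1, CCR4, IL7R, IL9R, TLR7, IL2RB and NOTCH3 passed in each of the 17 planned refits. Without replicate 1 and without the block, 6 of the 22 passed: TLX1, CCR4, IL7R, TLR7, NOTCH3 and PRKCQ. With the block, which pairs libraries by replicate number, all 22 passed, both over the 9 libraries and without replicate 1. The adjusted p of CCR4 by edgeR was 0.000975, and its mean was 56.9 ± 8.16 CPM (SD, n = 3) in NTC, 146 ± 12.2 in siRNA1 and 55.8 ± 11.9 in siRNA2 libraries. IL7R, the interleukin 7 receptor, had 18.9 ± 1.996, 7.57 ± 1.30 and 17.5 ± 2.31 CPM in the same order (edgeR, adjusted p = 0.00224), and IL9R had 40.7 ± 1.61, 73.5 ± 3.25 and 40.2 ± 5.10 (edgeR, adjusted p = 0.00266). The other 15 were PTPRC, MYB, CXCR3, PRKCQ, ITGB7, ARPP21, HLA-DMB, IL10RB, IGLL1, CD3G, CCR8, DNTT, BACH2, MAF and NKG7, each of which lost its call when 1 library or another was left out. In all 22 the siRNA1 mean lay outside the other 2 means. CD3E, PTCRA and ABL1 did not pass with or without the block, with edgeR adjusted p of 0.947, 0.998 and 0.998, while RAG1 (0.513) and NOTCH1 (0.185) passed only with the block (2.52e-07 and 1.13e-05).

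Promoters of the classes differed in their content of CG dinucleotides (CpG), the sites of DNA methylation in vertebrates, and 6 are shown because they span that range among genes named above. RefSeq promoters (GRCh38.p14, 250 bases before to 50 after the start) matched 14860 of the 19737 genes. Sequences read 5′ to 3′ on the gene's strand with every CG in capitals. CD3D (chromosome strand minus) is chr11:118342656-118342955, CD1E (plus) is chr1:158353644-158353943, LMO1 (minus) is chr11:8268738-8269037, TLX1 (plus) is chr10:101131050-101131349, TCF7 (plus) is chr5:134115363-134115662 and NOTCH1 (minus) is chr9:136545999-136546298.
CD3D: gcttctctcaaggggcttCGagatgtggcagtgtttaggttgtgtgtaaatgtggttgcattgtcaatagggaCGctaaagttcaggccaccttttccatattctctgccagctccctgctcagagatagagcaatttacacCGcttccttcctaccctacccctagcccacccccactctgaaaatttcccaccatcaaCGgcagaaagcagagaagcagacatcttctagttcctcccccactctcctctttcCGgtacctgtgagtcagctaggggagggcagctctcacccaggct
CD1E: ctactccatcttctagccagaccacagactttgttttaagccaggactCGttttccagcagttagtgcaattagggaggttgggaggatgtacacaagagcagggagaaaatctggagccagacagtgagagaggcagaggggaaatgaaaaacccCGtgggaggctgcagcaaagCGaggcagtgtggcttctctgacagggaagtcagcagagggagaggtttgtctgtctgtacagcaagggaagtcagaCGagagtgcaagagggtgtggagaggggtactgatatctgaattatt
LMO1: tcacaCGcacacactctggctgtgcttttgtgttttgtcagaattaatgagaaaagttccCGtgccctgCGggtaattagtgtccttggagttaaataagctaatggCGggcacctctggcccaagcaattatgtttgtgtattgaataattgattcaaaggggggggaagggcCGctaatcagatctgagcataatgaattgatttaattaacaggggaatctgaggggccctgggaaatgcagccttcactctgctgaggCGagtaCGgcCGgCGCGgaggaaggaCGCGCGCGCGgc
TLX1: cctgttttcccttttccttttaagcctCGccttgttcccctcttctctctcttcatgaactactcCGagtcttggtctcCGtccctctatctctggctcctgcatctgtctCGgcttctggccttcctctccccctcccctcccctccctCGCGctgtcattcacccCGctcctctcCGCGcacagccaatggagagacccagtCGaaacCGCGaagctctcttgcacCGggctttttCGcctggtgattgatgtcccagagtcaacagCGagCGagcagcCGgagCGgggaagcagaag
TCF7: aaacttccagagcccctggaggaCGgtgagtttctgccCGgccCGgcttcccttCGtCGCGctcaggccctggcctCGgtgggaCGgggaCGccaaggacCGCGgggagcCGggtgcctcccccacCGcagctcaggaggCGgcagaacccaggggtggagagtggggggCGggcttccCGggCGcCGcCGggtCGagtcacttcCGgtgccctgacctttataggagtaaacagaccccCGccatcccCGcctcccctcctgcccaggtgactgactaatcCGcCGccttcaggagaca
NOTCH1: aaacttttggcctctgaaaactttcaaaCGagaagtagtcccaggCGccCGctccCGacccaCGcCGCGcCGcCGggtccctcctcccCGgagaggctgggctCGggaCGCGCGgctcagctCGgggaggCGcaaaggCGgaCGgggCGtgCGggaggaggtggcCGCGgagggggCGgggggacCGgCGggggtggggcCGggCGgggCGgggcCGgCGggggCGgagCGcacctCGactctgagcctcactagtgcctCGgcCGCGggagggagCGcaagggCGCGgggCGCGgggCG

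The CD3D and CD1E promoters above hold 5 and 4 CpG in 300 bases, that of the silent LMO1 15, and those of TLX1, TCF7 and NOTCH1 18, 25 and 42. Over all matched genes the median was 28 CpG in the top, 26 in the middle, 18.5 in the mixed, 18 in the low and 9 in the absent class. Promoters with 5 CpG or fewer were 3.79% of the top, 6.19% of the middle and 40.2% of the absent class, against 19.0% of all. Some lists of expressed T cell genes had few CpG. The 12 matched promoters of cortical thymocyte genes had a median of 4 CpG, with 7 at 5 or fewer but 32 in that of RAG1, and the 6 of pan-T antigens a median of 5, although most of these genes were middle or top. The RAG1 and NOTCH1 windows lie wholly upstream of the GENCODE 29 gene spans given above. Other starts of these genes were not examined. Transcription factor genes of the T lineage had a median of 27 CpG in 22 promoters and cell cycle genes 29 in 14. The motif TATAAA, searched on both strands over the whole window, was in 9.35% of all promoters, 5.91% of the top class and 17.4% of the absent class, and in TCF7 among the 6 shown. These are descriptions of sequence, and no methylation was measured.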

How the data were processed

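PolyA+ RNA of ALL-SIL cells was sequenced in 9 libraries of 3 labelled groups, 3 per group. The deposited values are counts of reads per gene, 1 table per library; per the labels the TruSeq kit does not mark strand, and per the submitters' processing notes the genome was GRCh38. Neither notes nor labels name an aligner or an annotation. The unstranded count was used. It drops reads that fall in overlapping genes (6.68% to 7.25% of reads), so genes with an overlapping partner can be undercounted. The sum of the stranded counts is given beside them, and it includes such reads whichever gene they came from. The 4 summary lines stayed out of every total.

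Symbols, biotypes and exon lengths came from GENCODE 29, which matched 57492 of 58096 rows, with 0.0317% of counts in the rest. CPM and TPM were computed from these counts (pandas 2.3.3), and the classes need no test. The 32 lists held 1 name that was not matched and 1 matched through another symbol. RefSeq promoters of chromosome 8 were left out, and only the first listed promoter of each gene was used. Members and lists were chosen with earlier results of these data known.

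Some listed genes are not reported here. Named genes were the 6 markers, the first genes by CPM and by TPM, listed genes (top, absent or highest per list, most variable, or called by the test), the steadiest and most variable genes, the leading V genes and 5 long noncoding RNAs. The 3 groups were compared with edgeR 4.0.16 (R 4.3.3; TMM scaling, filterByExpr with a minimum count of 10, quasi-likelihood F test, Benjamini-Hochberg adjusted p under 0.05) in 1 fit without a block. On simulated counts without a replicate effect it was checked to recover most changed genes. The real libraries share such effects, so that check does not cover them. Replicate numbers were taken to pair libraries, since deviations from group means correlated at 0.383 to 0.623 in all 9 same-numbered pairs and at -0.445 to 0.069 in the 18 others. Alternatives were other class limits, scalings, counts and tests (DESeq2 1.42.0, limma 3.58.1), the block, and leaving out each library. Replicates 2 and 3 alone were added after seeing the data. Intervals and floors cover counting error only, as reads carry no molecular identifiers.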

Additional observations from a re-analysis of the deposited data

How the results depend on the processing

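Ranks by TPM changed only which genes were top, since the other limits stayed in CPM, so near-equal class counts were set in advance. Under them 40 of 443 listed protein-coding genes changed class. NOTCH2, NOTCH3, NUP214, AKT1, PHF6, SUZ12 and BCL2 were among those that went from top to middle. CD1B, CD1E, HES1 and HLA-B were among those that went from middle to top. The 5 class counts stayed within 1.5 times of the reported ones under TMM scaling, totals without mitochondrial genes and counts summed over strands. The class counts also did so under ranks by TPM, over replicates 2 and 3 alone and with each library left out. Limits moved them by construction: a top limit of 5% or 20% gave 796 or 3444 top genes, ranks among all gene rows 5236 top and 4967 middle genes, an absent limit of 0.2 CPM 1479 low genes, and the 3 NTC libraries alone 332 mixed genes. The median ratio of highest to lowest library was 1.308 to 1.338 with 1 library left out, 1.291 over replicates 2 and 3, and 1.163 over the NTC libraries, as fewer libraries must lower it.

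The 198 calls of the test of the 3 groups (1628 genes at an unadjusted p under 0.05) became 650 with no filter beyond 1 count, 592 with DESeq2's likelihood ratio test and 2178 with the replicate block. Leaving out 1 library gave 63 to 172 calls, 63 without siRNA1 replicate 3, 80 without siRNA1 replicate 1, 91 without siRNA1 replicate 2 and 118 without NTC replicate 3. Replicates 2 and 3 alone, chosen after seeing the data, gave 46, and 1306 with the block. The cause of these moves was not tested. The other 5 planned fits gave 175 to 219 calls.

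Depth limits the absent class: 0.1 CPM is 5.83 to 9.95 counts per library, so a gene read a few times per library cannot be told from one that is silent, and unstranded counts cannot separate antisense partners.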
